A study of Homo sapiens with 4 samples.

Results

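The human genes with symbols from ZNF500 to ZNF999 encode zinc finger proteins of the ZNF naming series, and the rule that chose them reads only the symbol, although the range was proposed with earlier results of these data known. The rule found 256 of the 20245 gene names in the deposited tables. Of these, 215 were in the count table, 214 passed the filter on low counts and were tested among 14620 genes, and 41 were found only in the table of TPM values (a level scaled by transcript length and library). ZNF676 was the 1 gene with counts that was not tested.

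RNA was sequenced from HEK293T, an established human embryonic kidney line that expresses the SV40 large T antigen. The 2 FOXP4 KO libraries, labelled as a FOXP4 knock down genotype with the title code KO1, were set against 2 control libraries, and all 4 came from cells kept in DMEM with serum. The study's text describes the perturbation in different ways, in one place as a CRISPR-Cas9 knockout and in another as an shRNA virus with puromycin, and the shared code KO1 was read as a single line or construct. Whether the libraries of a group stem from different cultures is not stated, and the spread behind the p-values may therefore be technical. FOXP4 is a forkhead transcription factor, and the contrast asks which transcripts differ when its level is low.

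Most proteins of this series carry arrays of C2H2 fingers, small zinc-holding loops that each contact a few bases of DNA. Many also carry a KRAB box at the N terminus, which recruits the corepressor TRIM28 and, through it, the histone methyltransferase SETDB1 and HP1 proteins, and KRAB zinc finger proteins are best known for silencing transposable elements. Their genes arose by repeated duplication and lie in clusters, above all on chromosome 19. Members without KRAB have more varied roles, among them partners of chromatin complexes, developmental regulators and factors of the ribosome. A script found a KRAB box in the translated coding transcripts of 165 members and none in 89, and 2 members had no annotated coding transcript. The median number of C2H2 fingers was 10, with a range of 0 to 34 under a strict pattern. Chromosome 19 held 132 of the 256 members.

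FOXP4 had 713 and 886 reads in the FOXP4 KO libraries, against 2562 and 2463 in the control libraries, and its log2 fold change was −1.78 (SE 0.19, edgeR adjusted p = 0.0038). FOXP4 RNA was thus lower and still present in both FOXP4 KO libraries. The library totals were 42150257 and 41796690 reads in the FOXP4 KO group and 36393224 and 43057305 in the control group. The listed markers of HEK293 cells were summed over 12 genes and came to 566 and 506 TPM in the FOXP4 KO columns, against 962 and 1118 TPM in the control columns. VIM alone carried this difference, and without it the other 11 genes summed to 321 and 351 TPM in FOXP4 KO, against 238 and 209 TPM in control. Of the 11 marker genes tested, 2 were higher (the neurofilament genes NEFM and INA) and 2 were lower (CDH2 and VIM), and PAX8 was at or near 0 in all columns. Markers of other cells were low. The 4 blood markers summed to 0.784 and 0.342 TPM in FOXP4 KO and 1.63 and 0.742 TPM in control, with HBB at 0 throughout. The 4 endothelial markers summed to 0.450 and 0.436 TPM in FOXP4 KO and 0.165 and 0.388 TPM in control. The 4 fibroblast markers summed to 11.5 and 7.08 TPM in FOXP4 KO and 6.79 and 8.39 TPM in control, most of it COL1A1. The part of these markers in the results was not tested. In bulk RNA, fewer cells with a transcript and less of it per cell cannot be told apart.

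Between FOXP4 KO and control, 29 of the 214 tested members were higher and 17 were lower, at an adjusted p under 0.05 in edgeR's quasi-likelihood test over all tested genes, and 168 were not called. Across all tested genes, 13.8% were called higher and 12.1% lower. The share of members called higher, 13.6%, was near that background, and the share called lower, 7.94%, was below it. The median log2 fold change of the members was 0.10, against 0.01 for all tested genes. Both FOXP4 KO libraries lay above both control libraries for 83 members (35.5% of all tested genes did so) and below them for 60 (33.2% of all tested genes), and all 46 called members were among these. At an unadjusted p under 0.05 and a log2 fold change beyond 1.2, 13 members were higher and 3 lower, where 6.04% and 2.36% of all tested genes were. Among the 227 tested genes of the ZNF series with lower numbers, 26 were higher and 19 lower, with a median of 0.06. The changes of the called members were of usual size. Of the 29 that rose, 13 did so by more than 2-fold (44.8%, against 50.5% of all genes called higher), and of the 17 that fell, 4 did so by more than 2-fold (23.5%, against 24.8% of all genes called lower). With upper-quartile scaling the members split into 34 higher and 13 lower, and all tested genes into 2383 higher and 1368 lower, against 2013 and 1765 in the main test. With 1 library left out, a group held 1 library, and fewer calls were made in total, among members and among all tested genes alike. ZNF595, ZNF613 and ZNF813, which rose, and ZNF793, ZNF511 and ZNF778, which fell, were called in all 4 of these fits. No other called member was, and the share of all called genes that held in the same way was not counted.

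**Figure D1:**
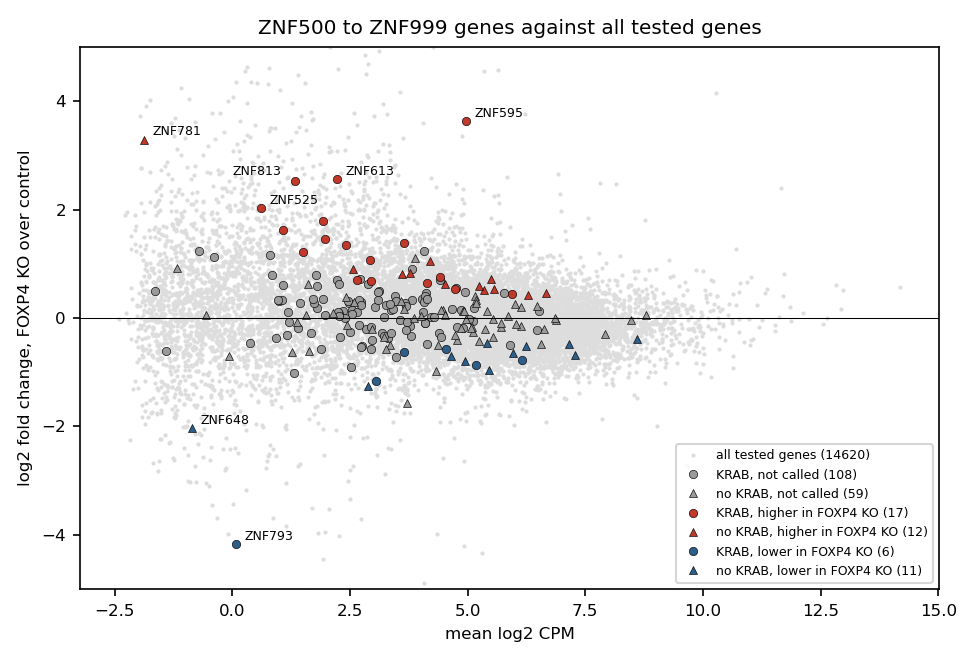
The log2 fold change of FOXP4 KO over control is plotted against the mean log2 CPM for all 14620 tested genes (light grey) and for the tested members with KRAB (circles) and without it (triangles), coloured where called. The highest named points are ZNF595, at 3.63, and ZNF781, at 3.29, and the lowest is ZNF793, at −4.17.

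The starts of 5 genes are shown because these genes had the 3 largest rises and the largest fall that held in every fit with a library left out, or, for ZNF880, were listed at 0 TPM in both FOXP4 KO columns only. Each line gives the 150 bases before the RefSeq start of the gene (GRCh38.p14, forward strand), with CG dinucleotides, the sites of DNA methylation, in capitals. The gene positions given further on are those of GENCODE, whose starts can differ. By those positions the ZNF595 window lies partly, and the ZNF613 window wholly, inside the gene. They are chr4:53171-53320 for ZNF595, chr19:51927322-51927471 for ZNF613, chr19:53467583-53467732 for ZNF813, chr19:37506789-37506938 for ZNF793 and chr19:52369773-52369922 for ZNF880.
ZNF595: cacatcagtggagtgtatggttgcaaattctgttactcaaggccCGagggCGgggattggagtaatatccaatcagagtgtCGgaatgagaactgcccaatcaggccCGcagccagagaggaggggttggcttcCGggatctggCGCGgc
ZNF613: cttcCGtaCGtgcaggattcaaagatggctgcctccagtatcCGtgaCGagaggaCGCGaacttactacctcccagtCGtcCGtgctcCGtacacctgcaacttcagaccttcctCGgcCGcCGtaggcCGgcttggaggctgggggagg
ZNF813: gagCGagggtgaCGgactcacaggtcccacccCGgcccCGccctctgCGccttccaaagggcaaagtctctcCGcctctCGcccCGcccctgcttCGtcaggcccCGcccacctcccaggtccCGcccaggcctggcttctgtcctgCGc
ZNF793: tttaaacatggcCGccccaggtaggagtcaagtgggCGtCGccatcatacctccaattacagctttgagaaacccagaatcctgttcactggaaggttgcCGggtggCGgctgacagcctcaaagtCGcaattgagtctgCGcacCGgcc
ZNF880: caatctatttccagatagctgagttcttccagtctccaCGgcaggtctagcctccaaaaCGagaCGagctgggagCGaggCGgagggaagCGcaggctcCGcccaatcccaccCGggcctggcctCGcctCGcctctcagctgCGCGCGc
All 5 windows held CG dinucleotides, 7 in ZNF595, 13 in ZNF613, 12 in ZNF813, 8 in ZNF793 and 13 in ZNF880. Over 250 bases before the start, the 207 members with an entry had a median of 17 CG, against 21 for tested genes in the table. Members called higher had a median of 17 CG (25 genes) and members called lower 25 CG (13 genes). Members with KRAB had a median of 16 and members without it 22. The forkhead core GTAAACA, searched on both strands, occurred in 5 of the 207 windows (2.42%), in 0 of the 25 members called higher and in 0 of the 13 called lower, against 1.96% of the promoters of tested genes and 2.98% of all 27305 promoters of the table.

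ZNF595, a KRAB gene with 17 fingers near the end of the short arm of chromosome 4 (chr4:53285-88211, GRCh38, forward strand), had the largest rise among members with more than a few reads. Its counts were 2513 and 2407 in the FOXP4 KO libraries, against 168 and 199 in the control libraries. The groups did not overlap, and both libraries of each group were close together. In CPM (counts scaled to the normalized library size) it averaged 57.9 ± 0.481 CPM in FOXP4 KO and 4.67 ± 0.0935 CPM in control (SD, n = 2 each), a log2 fold change of 3.63 (SE 0.14, edgeR adjusted p = 0.00025). In TPM it was 109 and 107 in the FOXP4 KO columns, against 8.92 and 8.87 in the control columns. The 12 other tested genes within 1 Mb had a median log2 fold change of −0.0035. ZNF718, the next member along the chromosome (chr4:124480-202303), was listed at 0 TPM in all 4 columns, and 0% of the 75-base transcript windows of ZNF595 occur in another gene.

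On chromosome 19, ZNF613 (chr19:51927147-51948759) and ZNF813 (chr19:53467735-53496255), both KRAB genes on the forward strand with 12 and 13 fingers, rose by similar amounts. ZNF613 had 368 and 307 reads in the FOXP4 KO libraries, against 49 and 56 in the control libraries, a log2 fold change of 2.57 (SE 0.23, edgeR adjusted p = 0.0025). ZNF813 had 219 and 137 reads in FOXP4 KO, against 26 and 31 in control, a log2 fold change of 2.52 (SE 0.32, edgeR adjusted p = 0.0061). For both genes the lowest FOXP4 KO library was more than 4 times the highest control library, and the 2 FOXP4 KO libraries of ZNF813 differed from each other more than the control libraries did. The 11 neighbours of ZNF613 had a median log2 fold change of 0.01, and the 20 neighbours of ZNF813 one of 0.60.

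The other large rises were mostly of KRAB genes of chromosome 19 at low levels. ZNF525 had 102 and 97 reads in FOXP4 KO and 29 and 15 in control, a log2 fold change of 2.03 (SE 0.43). ZNF583 had 256 and 236 reads in FOXP4 KO and 90 and 37 in control, a log2 fold change of 1.78 (SE 0.47). In both genes the control libraries were apart from each other, and the FOXP4 KO libraries were close. ZNF544 had 163 and 100 reads in FOXP4 KO and 36 and 42 in control, a log2 fold change of 1.63 (SE 0.33). ZNF700 had 347 and 293 reads in FOXP4 KO and 119 and 111 in control, a log2 fold change of 1.35 (SE 0.23). In both of these genes the groups were apart, and ZNF544 varied most between its FOXP4 KO libraries. ZNF564 had a log2 fold change of 1.47 (SE 0.29). However, 64.9% of the 75-base windows of its transcripts also occur in AC010422.6, a gene that overlaps it, so its reads are uncertain. Among all 46 called members, 7 shared over 10% of their windows with another gene. Another tested gene overlapped 17 of the 46, against 71 of 213 tested members. ZNF836 (1.22, SE 0.33) and ZNF577 (1.07, SE 0.19) complete the chromosome 19 genes among the 12 largest rises. Without FOXP4 KO replicate 1, the edgeR adjusted p was 0.088 for ZNF525, 0.12 for ZNF583, 0.13 for ZNF544, 0.081 for ZNF700 and 0.086 for ZNF564, and without FOXP4 KO replicate 2 it was 0.18 for ZNF836 and 0.079 for ZNF577, so each of these calls was lost with a library left out. The size also moved with the controls: with control replicate 1 left out the log2 fold change was 2.73 for ZNF583 and 2.72 for ZNF525, and with control replicate 2 left out it was 1.18 for ZNF583 and 1.51 for ZNF525.

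Away from chromosome 19, ZNF619 and ZNF620, a pair of KRAB genes that overlap on the same strand of chromosome 3, both rose. ZNF619 had 837 and 695 reads in FOXP4 KO and 177 and 380 in control, a log2 fold change of 1.38 (SE 0.29). ZNF620 had 1218 and 1049 reads in FOXP4 KO and 482 and 775 in control, a log2 fold change of 0.76 (SE 0.18). The control libraries of both genes were apart from each other in the same way, and reads from the overlap cannot be told apart. ZNF853, without KRAB, on chromosome 7, had 966 and 1135 reads in FOXP4 KO and 324 and 636 in control, a log2 fold change of 1.05 (SE 0.25). Its 2 control libraries likewise differed. The calls of ZNF619 and ZNF620 were lost without FOXP4 KO replicate 1 (edgeR adjusted p = 0.088 and 0.15), and that of ZNF853 without FOXP4 KO replicate 2 (edgeR adjusted p = 0.12).

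ZNF781, which lies on chromosome 19 and overlaps ZFP30, was called higher from few reads, 19 and 15 in FOXP4 KO against 1 and 2 in control. The ratio of the summed reads was 10.5, with an exact 95% interval of 3.30 to 53.4 for counting error only. Its edgeR adjusted p was 0.019, its DESeq2 adjusted p was 0.052, and it was not called with any library left out.

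The largest fall was that of ZNF793, a KRAB gene with 6 fingers (chr19:37506939-37548762, forward strand), in the same run of genes as ZNF781. It had 6 and 3 reads in the FOXP4 KO libraries, against 67 and 87 in the control libraries. Both FOXP4 KO libraries were close to the floor, and the groups were far apart. The log2 fold change was −4.17 (SE 0.43, edgeR adjusted p = 0.0038), and the ratio of control over FOXP4 KO reads was 18.5, with an exact 95% interval of 9.49 to 41.2 for counting error only. The 12 neighbours within 1 Mb had a median log2 fold change of 0.00. In TPM it was listed at 0.0662 and 0.0256 in FOXP4 KO, against 1.10 and 2.01 in control.

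ZNF511 and ZNF778 fell at higher levels. ZNF511 (chr10:133308475-133313162), without KRAB, had 1310 and 1218 reads in FOXP4 KO and 2139 and 2398 in control, a log2 fold change of −0.96 (SE 0.12, edgeR adjusted p = 0.0057). ZNF778 (chr16:89217703-89237071), with KRAB, had 1087 and 1080 reads in FOXP4 KO and 1577 and 2091 in control, a log2 fold change of −0.86 (SE 0.12, edgeR adjusted p = 0.0076). Neither gene had groups that overlapped. Both lie near a chromosome end. Of the 21 neighbours of ZNF511, 8 were called lower and 0 higher, with a median log2 fold change of −0.69. Of the 33 neighbours of ZNF778, 24 were called lower and 1 higher, with a median of −0.77. ZNF511 overlaps TUBGCP2 on the opposite strand and shares 15.8% of its transcript windows with the readthrough gene ZNF511-PRAP1, and whether the counting used strand is not given in the sources used here.

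ZNF804A, a gene at a schizophrenia risk locus that encodes a protein with 1 finger, had 179 and 193 reads in FOXP4 KO and 381 and 436 in control, a log2 fold change of −1.25 (SE 0.19, edgeR adjusted p = 0.0084). ZNF517, with KRAB, on chromosome 8, had 214 and 222 reads in FOXP4 KO and 383 and 520 in control, a log2 fold change of −1.15 (SE 0.18, edgeR adjusted p = 0.0096). In both genes the FOXP4 KO libraries were close to each other and below both control libraries. ZNF746, which encodes PARIS, a repressor of PPARGC1A that parkin marks for degradation, had 2138 and 2336 reads in FOXP4 KO and 3164 and 3919 in control, a log2 fold change of −0.77 (SE 0.12, edgeR adjusted p = 0.0084). These 3 calls were lost without FOXP4 KO replicate 1, with adjusted p of 0.067 for ZNF804A, 0.073 for ZNF517 and 0.057 for ZNF746. ZNF771 (−0.79), ZNF697 (−0.70), ZNF512B (−0.68), ZNF618 (−0.65), ZNF557 (−0.63) and ZNF500 (−0.57) complete the 12 largest falls, and the highest edgeR adjusted p of these with a library left out was 0.071, 0.086, 0.058, 0.14, 0.17 and 0.15, in the same order, each with a FOXP4 KO library left out. ZNF648 fell from few reads, with 9 and 8 in FOXP4 KO against 28 and 37 in control (log2 fold change −2.03, SE 0.41), and lost its call with any library left out.

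**Figure D2:**
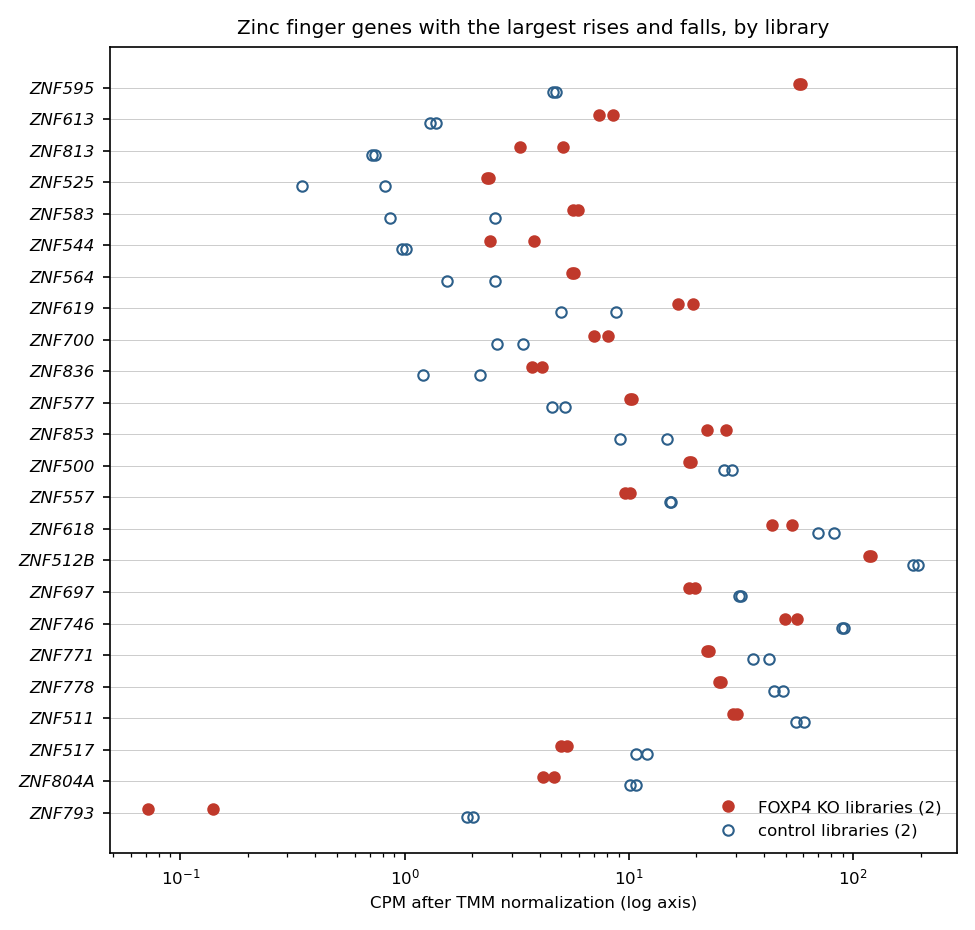
Each row is a member among the 12 largest rises or the 12 largest falls, and each point is a library, in CPM on a log axis (filled, 2 FOXP4 KO libraries; open, 2 control libraries). The FOXP4 KO libraries of ZNF595 sit near 58 CPM and its control libraries near 4.7 CPM, while most falls are small shifts at higher levels.

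Members with KRAB and members without it were described apart. Of 131 tested KRAB members, 17 were higher and 6 (4.58%) lower, with a median log2 fold change of 0.18. Of 82 tested members without KRAB, 12 were higher and 11 lower (14.6% and 13.4%), both near the shares of all tested genes, with a median of −0.03. KRAB members were also expressed at a lower level, with a median of 5.65 TPM against 17.5 TPM for the others, and low genes of all kinds leaned upward in these libraries. Among all 3898 tested genes with a mean log2 CPM under 3, 18.4% were higher and 6.08% lower, and among the 66 KRAB members of that range 16.7% were higher and 1.52% lower. At a mean log2 CPM of 3 or more, the 65 KRAB members had 6 higher and 5 lower (9.23% and 7.69%), against 12.1% and 14.3% of all tested genes. Members without KRAB had 15.4% higher and 13.8% lower in this range (65 genes), and 11.8% higher and 11.8% lower under 3 (17 genes). With all 4 libraries, the share of KRAB members called lower was thus under the background in both ranges, and the share called higher was not above it. The fits with a library left out were not split by level, so they cannot test this reading. Over all levels, the shares of KRAB members called did not keep their side of the background in every such fit. The share called lower was above that of all tested genes without FOXP4 KO replicate 1. The share called higher was above it without control replicate 1 and, narrowly, without control replicate 2. With 1 library left out, the median log2 fold change of KRAB members ranged from 0.13 to 0.21. For members without KRAB it ranged from −0.12 to 0.04. The difference between the classes was not tested. With upper-quartile scaling the median of the members without KRAB was 0.04, and that of all tested genes was 0.085.

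Of the 106 members tested on chromosome 19, 15 were higher and 3 lower (14.2% and 2.83%), against 13.8% and 12.1% of all tested genes. Of the 106, 71 were above 0, and the median log2 fold change was 0.19. KRAB was carried by 88 of the 106, so this group and the KRAB class are largely the same genes. Their median level was 5.18 TPM, and all tested genes with a mean log2 CPM under 3 had a median log2 fold change of 0.28. Level was not matched in the comparisons that follow. The 854 other tested genes of chromosome 19, which are not named ZNF or ZFP, had 92 higher and 150 lower (10.8% and 17.6%) and a median of −0.09. This split of the calls changed with the libraries kept. When FOXP4 KO replicate 1 was left out, 2 of the 106 members were higher (1.89%) and 4 lower (3.77%), against 4.33% and 3.15% of all tested genes in that fit. When FOXP4 KO replicate 2 was left out, 4 were higher (3.77%) and 1 lower (0.943%), against 4.31% and 4.45% of all tested genes. Leaving out control replicate 1 gave 15 higher and 2 lower (1.89%), against 8.07% and 7.24% of all tested genes, and leaving out control replicate 2 gave 13 higher (12.3%) and 2 lower, against 13.6% and 10.9%. Runs of members with gaps of at most 500 kb differed among themselves, and are set against 13.8% of all tested genes higher and 12.1% lower. The runs at chr19:8806170-9793180, chr19:19785839-21379302 and chr19:22975468-23945159 held 5, 5 and 4 tested members, with 0 calls. In the run at chr19:11483427-12633840, 2 of 8 tested members rose (ZNF700 and ZNF564) and 0 fell. The run at chr19:51804816-53496255 held 19 tested members, all with KRAB, of which 5 rose (ZNF577, ZNF613, ZNF836, ZNF525 and ZNF813) and 0 fell, with a range from −0.62 to 2.57. Of the 8 other ZNF genes tested in the same stretch, 0 were higher and 2 lower. The run at chr19:55476332-56671783 held 10 tested members, of which 4 rose (ZNF580, ZNF581, ZNF787 and ZNF583) and 0 fell, and the other 6 lay between −0.18 and 0.18. ZNF580 (0.53, SE 0.12) and ZNF581 (0.51, SE 0.12) overlap on the same strand. The run at chr19:57240685-58418327 had 22 tested members, of which 3 rose (ZNF586, ZNF587 and ZNF544) and 20 were above 0, and the 10 other genes there, not named ZNF, had a median of 0.47. In the run at chr19:36182060-37817300, 19 members were tested, ZNF781 rose and ZNF793 fell, and the median was −0.21. With FOXP4 KO replicate 2 left out, ZNF580, ZNF581 and ZNF787 lost their calls (edgeR adjusted p = 0.16, 0.15 and 0.22), and with FOXP4 KO replicate 1 left out, ZNF586 and ZNF587 lost theirs (edgeR adjusted p = 0.23 and 0.21).

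**Figure D3:**
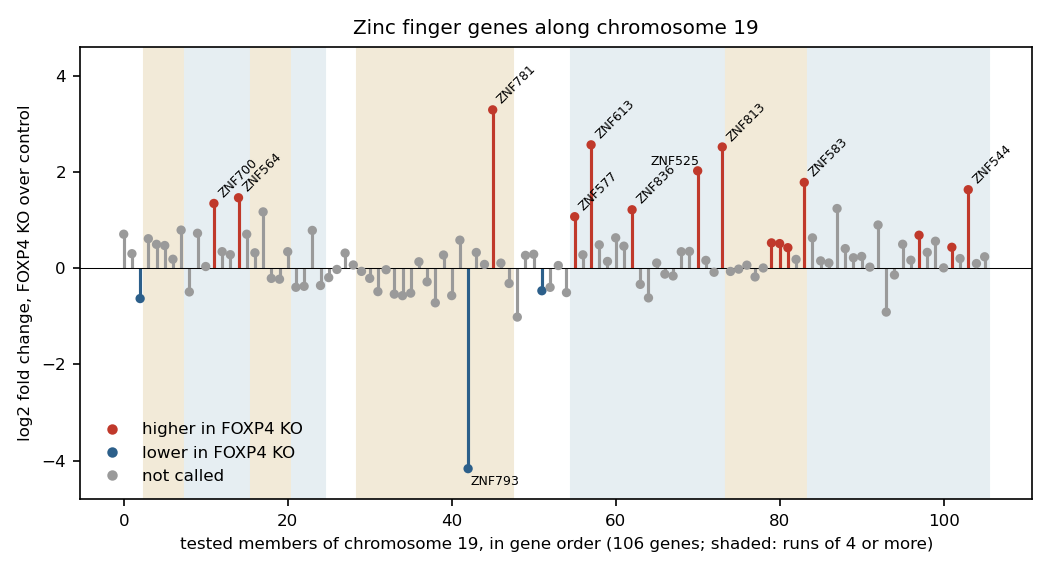
The 106 tested members of chromosome 19 stand in gene order along the horizontal axis, with the log2 fold change of FOXP4 KO over control on the vertical axis and runs of 4 or more members shaded. Called rises stand mostly in the right part, and ZNF793 is the deepest point, at −4.17.

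On chromosome 16, 16 of the 17 tested members had a negative log2 fold change, and the median was −0.29. Of the 17, 4 were lower (23.5%) and 0 higher, against 12.1% and 13.8% of all tested genes. The run at chr16:30407297-31794869 held 12 of the 17, of which 11 were below 0 and 1 was called lower (ZNF771). The 32 other genes tested in that run, not named ZNF or ZFP, had a median of 0.04. The 653 other genes of chromosome 16 had 128 lower and 69 higher (19.6% and 10.6%), with a median of −0.14. When 1 library was left out, the median of the chromosome 16 members ranged from −0.45 (FOXP4 KO replicate 2 dropped) to −0.20 (FOXP4 KO replicate 1 dropped). In the same fits, the median of all tested genes lay between 0.0046 and 0.0095. On chromosome 3, 10 of 11 tested members were above 0, and the median was 0.63. Of the 11, 3 were higher (27.3%) and 0 lower, against 13.8% and 12.1% of all tested genes. The 792 other genes there had a median of 0.11, with 15.7% higher and 8.08% lower. Of the 3 calls, 2 were those of the overlapping genes ZNF619 and ZNF620. The chromosome 3 members had more calls when control replicate 2 was left out, and fewer when any other library was. All tested genes had fewer calls in total in each of these fits. With 1 library left out, the log2 fold change ranged from 1.01 to 1.84 for ZNF619 and from 0.55 to 0.96 for ZNF620.

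The genes around a member were compared with it. For 197 tested members with at least 3 tested neighbours within 1 Mb, genes named ZNF or ZFP left out, the median log2 fold change of the neighbours was related to that of the member with a Pearson r of 0.27 and a Spearman rho of 0.29, across members that share libraries and, in clusters, neighbours. Of the 16 members called lower with neighbours, 15 had a neighbour median below 0, and 5 had one below −0.3. Of the 28 called higher, 19 had a neighbour median above 0, and 10 had one above 0.3. Of the 153 members not called, 75 had neighbours on the same side of 0. The fall of ZNF793 and the rises of ZNF595 and ZNF613 stood among neighbours with a median near 0.

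**Figure D4:**
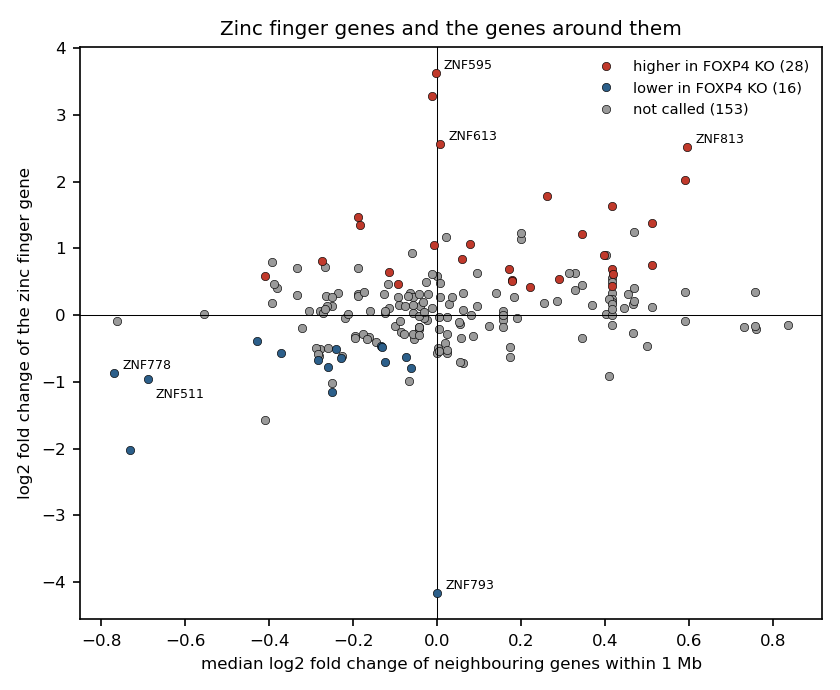
Each point is 1 of 197 tested members, with the median log2 fold change of its neighbours within 1 Mb on the horizontal axis and its own log2 fold change, FOXP4 KO over control, on the vertical axis. ZNF595, ZNF613 and ZNF793 lie on the vertical line at 0, and ZNF511 and ZNF778 lie to the left.

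Of 22 members with known roles, 18 (81.8%) were not called, near the 78.5% of all tested members and the 74.2% of all tested genes. ZNF532, ZNF592 and ZNF687, partners of the chromatin reader ZMYND8, had log2 fold changes of −0.27, −0.47 and −0.09, and 0 of 3 passed the test (edgeR adjusted p = 0.20, 0.063 and 0.66). ZNF592 was called by DESeq2 (adjusted p = 0.026). Of 8 chromatin adaptors, ZNF827, which recruits the NuRD complex to telomeres, was higher, and ZNF746 was lower. ZNF827 had 1145 and 1214 reads in FOXP4 KO and 612 and 814 in control, a log2 fold change of 0.62 (SE 0.14, edgeR adjusted p = 0.026, and 0.14 without FOXP4 KO replicate 2). ZNF518B, a partner of the methyltransferase G9a, had a log2 fold change of 0.40 (edgeR adjusted p = 0.064, and 0.041 with upper-quartile scaling), ZNF644, of the same complex, −0.14, and ZNF711, which recruits the demethylase PHF8, −0.21. Of 6 developmental regulators, ZNF804A fell and 5 were not called. ZNF521, a cofactor in early blood progenitors, had 342 and 769 reads in FOXP4 KO and 376 and 553 in control, so that its FOXP4 KO libraries enclosed the control libraries. Of 5 factors of the ribosome and of RNA, ZNF598, the ubiquitin ligase that marks collided ribosomes, had 4676 and 5388 reads in FOXP4 KO and 5780 and 7185 in control, a log2 fold change of −0.47 (SE 0.12, edgeR adjusted p = 0.037). That call was lost with any library left out. ZNF622 (−0.18) and ZNF593 (−0.17), whose yeast relatives act on the large ribosomal subunit, ZNF638 (0.01), which binds unintegrated retroviral DNA, and ZNF830 (0.13) were not called.

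By level, the members with the highest mean TPM were ZNF703, ZNF503, ZNF768, ZNF664 and ZNF593. ZNF703 and ZNF503 are corepressors of the same small family, and ZNF703 is amplified in some breast cancers. ZNF703 had 241 and 295 TPM in the FOXP4 KO columns, against 255 and 272 in the control columns. ZNF503 had 191 and 229 TPM in FOXP4 KO, against 227 and 214 in control. The groups overlapped in both. ZNF768 had 167 and 210 TPM in FOXP4 KO, against 222 and 250 in control (log2 fold change −0.29 in the counts, edgeR adjusted p = 0.19). ZNF664 had 151 and 152 TPM in FOXP4 KO, against 192 and 209 in control, and was called lower in the counts with an edgeR adjusted p just under the threshold (log2 fold change −0.38), a call that was lost with any library left out. In order of mean level, ZNF503 and ZNF768 did not differ beyond their spread, nor did ZNF593 from ZNF598, the next gene. Of the 214 tested members, 202 had a mean of at least 1 TPM, 91 of at least 10 TPM and 15 of at least 50 TPM.

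The 41 members found only in the TPM table had no counts and were not tested. Of these, 33 carry KRAB and 25 are on chromosome 19. At 0 in all 4 columns were 26, at 0 in both control columns but not in FOXP4 KO were 5, and at 0 in both FOXP4 KO columns but not in control was 1. That one was ZNF880, a KRAB gene with 13 fingers, listed at 0 in both FOXP4 KO columns, against 1.17 and 2.04 TPM in the control columns. It was the only one of the 41 above 0.5 TPM in any column. An entry of 0 need not mean absent RNA. ZNF701 was listed at 4.44 and 0 TPM in the FOXP4 KO columns, while its counts were 273 and 278 in the FOXP4 KO libraries, against 235 and 234 in the control libraries.

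The corepressors that KRAB proteins work through were listed beside the members. Of 20 tested, 2 were higher and 5 lower, where 13.8% and 12.1% of all tested genes were. Each of these 7 calls was lost in at least 1 fit with a library left out. Those fits gave fewer calls among all tested genes too. SETDB1 (0.48) and FAM208A (0.64), which encodes the HUSH subunit TASOR, were higher. CBX5, CHD3, CHD4 (−0.68), DNMT1 (−0.56) and UHRF1 (−0.72) were lower. TRIM28, the corepressor that binds KRAB, had 31486 and 32324 reads in FOXP4 KO and 36792 and 39661 in control, a log2 fold change of −0.38 (SE 0.13, edgeR adjusted p = 0.076), and was not called.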

How the data were processed

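RNA-seq of 2 FOXP4 KO and 2 control HEK293T libraries was used, grouped by the labels. The authors deposited raw counts per gene and, in a second table, TPM per gene. Library totals were 36393224 to 43057305 counts. No source used here names the aligner, the counter or the strand setting. GRCm38 and mm10, both mouse builds, appear in the submitters' processing notes, but the identifiers are those of human genes. The labels name a column kit for RNA extraction and the paper TRIzol. The TPM columns of the KO group could not be tied to replicates and were used as a group.

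The quasi-likelihood test of edgeR (version 4.0.16, under R 4.3.3) was fitted to the counts after filterByExpr and TMM, with Benjamini-Hochberg adjustment over 14620 genes and calls at 0.05. The SE is the size of the log2 fold change over the square root of F. The common biological coefficient of variation was 0.165. The test was tested on simulated data. Alternatives used DESeq2 1.42.0, limma 3.58.1 (voom, and log2(TPM + 1) or log2(TPM + 0.1)), other scalings and filters, a replicate block and each library left out. Genes were placed with GENCODE v29 (GRCh38), and promoters came from RefSeq (GRCh38.p14). KRAB boxes (at least 12 of 18 consensus letters) and fingers were found in proteins translated from GENCODE coding transcripts, not from RefSeq as planned. Members and lists were chosen with earlier results of these data known.

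The rule for named genes takes FOXP4, the 12 largest rises and falls among called members (mean log2 CPM of at least 0, groups apart), the 5 lowest p in each direction, the role lists, the 5 highest TPM, runs with at least 4 called members and members at 0 TPM in one group. Some of these are given as counts. ZNF781, ZNF648, ZNF620, ZNF586, ZNF587, ZNF676 and ZNF718 fall outside it and were chosen after their values were seen, and the corepressors were a list of their own.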

Additional observations from a re-analysis of the deposited data

How the results depend on the processing

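No called member changed direction under any alternative. Of the 46 called members, 46 kept their call with limma-voom and RLE scaling, 45 with DESeq2 and with no filter on low counts, 42 of 43 with a count of at least 10 in every library, 42 with upper-quartile scaling and 31 of 44 with either log2(TPM) test on filtered values. Upper-quartile scaling gave 7 members without KRAB as lower, against 11, and log2(TPM + 0.1) gave 17 of the other numbered ZNF genes as higher, against 26. On log2(TPM + 1) with no filter, 5 of 46 kept their call, and the counts were 349 higher and 297 lower for all genes, 2 and 3 for members, 2 and 0 for KRAB members, 0 and 3 for members without KRAB, and 2 and 3 for other ZNF genes, while FOXP4 was at −1.66 (adjusted p = 0.071). With an unadjusted p under 0.05 and a log2 fold change beyond 1.2, 883 genes were higher and 345 lower, 13 and 3 members, 1 KRAB member lower, 1 and 2 members without KRAB, and 8 and 6 other ZNF genes. The cause of these shifts was not tested.

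With 1 library left out, all genes ranged from 639 to 2013 higher and 467 to 1614 lower, members from 4 to 28 higher and 6 to 13 lower, KRAB members from 3 to 18 higher and 4 to 6 lower, members without KRAB from 0 to 10 higher and 1 to 7 lower, and other ZNF genes from 7 to 23 higher and 7 to 18 lower. The fewest calls came without a FOXP4 KO library, where 7 (replicate 1) and 10 (replicate 2) of the 46 kept their call, against 21 and 30 without control replicate 1 or 2. Of members not called, ZNF638 was at −0.0052 with DESeq2 and −0.0062 with RLE scaling, ZNF503 at 0.038 with upper-quartile scaling, which put the median of all genes at 0.085, and ZNF701 at −1.09 on log2(TPM + 1), with or without a filter, and at −2.59 on log2(TPM + 0.1). With a library left out, the log2 fold change ranged from −0.18 to 0.10 for ZNF503, −0.56 to 0.65 for ZNF521, −0.16 to 0.16 for ZNF638, −0.43 to 0.10 for ZNF644, −0.24 to 0.053 for ZNF687, −0.040 to 0.24 for ZNF701 and −0.10 to 0.20 for ZNF703.

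The replicate numbers showed no pairing of the samples: deviations from the group means correlated at −0.0026 between the first replicates. With 2 libraries per group, this value cannot exclude a pairing that the sources do not state. With the replicate number as a block, 28 members were higher and 18 lower, and 40 of 46 kept their call. Members with few reads, such as ZNF793 and ZNF781, are limited by depth.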
